A study of Mus musculus with 13 samples.

Results

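The 8 genes *Cdsn*, *Crct1*, *Lrtm2*, *Fgfbp1*, *P2ry2*, *Slc29a4*, *Peli3* and *Arl4c* were followed through glomeruli of mice with antibody-induced membranous nephropathy (MN), out of 35967 gene symbols in the expression table. They were selected by name on their own levels in these libraries, as transcripts seen higher in MN at day 1 or day 5 than in controls, so their differences between the groups are given as descriptions with no test. The values went with that choice for 7 of the 8 genes. *Peli3* went against it, with a mean lower than control on both days, and it is described here as a transcript that was lower in MN.

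THSD7A is a membrane protein on the foot processes of podocytes, the epithelial cells that cover the glomerular capillaries, and antibodies against it cause a form of MN. Every mouse was a wild-type Balb/c animal, male by the methods, and was given 2.0 mg of rabbit IgG into the peritoneum. The 5 control mice received preimmune IgG and were killed on day 1 or day 5; the day of each was not given, and both days form 1 control group. The other mice received anti-THSD7A IgG, which is the MN model, and were killed on day 1 (n = 4) or day 5 (n = 4); glomeruli were isolated after perfusion with magnetic beads, and each library is taken as 1 mouse. All mice, controls included, therefore carried rabbit IgG. Levels are TPM, the transcript's share of all transcripts after scaling by length, and the depth of each library is unknown because TPM keeps none. In bulk glomeruli, fewer cells of a type and less RNA per cell cannot be told apart.

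The 8 genes come from unrelated families. *Cdsn* encodes corneodesmosin, an adhesive glycoprotein secreted onto the corneodesmosomes that hold the outer layers of skin together, and *Crct1* encodes a small cysteine-rich protein of the epidermal differentiation complex, a gene cluster used by cornifying epithelia. *Lrtm2* encodes a membrane protein with leucine-rich repeats. *Fgfbp1* encodes a secreted carrier that releases fibroblast growth factors from heparan sulfate in the matrix, and *P2ry2* encodes a G protein-coupled receptor for extracellular ATP and UTP. *Slc29a4* encodes PMAT, a transporter of monoamines and adenosine, *Arl4c* a small GTPase that recruits cytohesins to the plasma membrane and is a target of liver X receptors, and *Peli3* a Pellino E3 ubiquitin ligase that acts on IRAK proteins downstream of Toll-like and interleukin-1 receptors.

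All 13 libraries carried the glomerular markers of their label. *Nphs1*, which encodes the slit diaphragm protein nephrin of podocytes, had mean levels of 765 TPM in controls, 669 TPM at day 1 and 654 TPM at day 5. The summed TPM of 6 endothelial genes was 4466 to 5611 in controls, 4390 to 5175 at day 1 and 5254 to 5576 at day 5, and that of 6 mesangial genes 1669 to 2425, 1910 to 2130 and 2163 to 2263. Proximal tubule genes summed to 2094 to 7821 in controls, where control replicate 5 was the highest, 3649 to 6847 at day 1 and 2696 to 3267 at day 5. *Kap*, 1 of these genes, was at 7313 TPM in control replicate 5, so the sum there was mostly that transcript. Markers of the loop, distal tubule and collecting duct summed to 258 to 521, 498 to 909 and 347 to 478 TPM, and leukocyte markers to 23.2 to 39.6, 25.8 to 48.2 and 19.4 to 43.5 TPM.

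Promoter sequence is shown for 3 of the genes: *Cdsn* and *Lrtm2*, whose levels across the libraries were the most alike, and *Peli3*, the transcript that was lower. Each is the 250 bases before the start of the gene's canonical transcript on mouse build GRCm39 (GENCODE annotation), read 5′ to 3′ on the gene's own strand. That of *Cdsn* is chr17:35862775-35863024 on the plus strand, and those of *Lrtm2* (chr6:119307779-119308028) and *Peli3* (chr19:4993156-4993405) are on the minus strand. Capitals mark a GC box (GGGCGG).
Cdsn: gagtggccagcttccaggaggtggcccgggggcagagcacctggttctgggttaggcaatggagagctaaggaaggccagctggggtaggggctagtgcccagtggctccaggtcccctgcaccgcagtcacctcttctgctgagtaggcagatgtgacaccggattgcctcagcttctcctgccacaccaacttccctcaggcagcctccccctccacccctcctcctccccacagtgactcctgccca
Lrtm2: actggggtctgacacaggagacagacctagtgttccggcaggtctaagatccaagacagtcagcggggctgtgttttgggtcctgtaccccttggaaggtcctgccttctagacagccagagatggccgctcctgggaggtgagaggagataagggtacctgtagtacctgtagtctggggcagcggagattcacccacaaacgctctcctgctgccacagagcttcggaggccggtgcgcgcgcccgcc
Peli3: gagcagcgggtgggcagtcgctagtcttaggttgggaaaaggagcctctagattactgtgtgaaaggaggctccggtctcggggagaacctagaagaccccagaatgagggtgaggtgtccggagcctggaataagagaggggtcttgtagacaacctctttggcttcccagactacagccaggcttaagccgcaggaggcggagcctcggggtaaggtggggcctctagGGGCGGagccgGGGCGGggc

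The *Peli3* window holds 2 GC boxes, at 20 to 15 and at 9 to 4 bases before it. *Cdsn* and *Lrtm2* hold none of the motifs searched. Each window precedes the canonical transcript only. For *P2ry2*, *Slc29a4*, *Peli3* and *Arl4c* it lies inside the annotated gene, and starts further upstream were not searched. Over the windows of all 8 genes, read on both strands, GGGCGG was found in 2 (*Slc29a4* and *Peli3*) and in 36.3% of the promoters of all 21751 protein-coding genes. *Slc29a4* held 7 GC boxes. The TATA box TATAAA was found in 3 of the 8 windows and in 11.9% of all promoters. It lay 22 to 17 bases before the start in *Crct1* and 113 to 108 bases before it in *P2ry2*. In *Slc29a4* it was on the other strand (TTTATA), 223 to 218 bases before the start. No enrichment was tested. None of the 8 windows held the AP-1 motif TGANTCA, found in 6.18% of all promoters, the cAMP response element TGACGTCA (1.7%), the EGR motif GCGTGGGCG (0.547%), the TEAD motif GGAATG (12.1%), the serum response CArG box (1.4%) or the NF-kB motif (4.23%), which says only that these letters are not in these windows. GC content over the 8 windows ran from 49.2% to 70.8% (*Arl4c*), with *Fgfbp1* at 53.2%, *P2ry2* at 55.6%, *Lrtm2* at 60.4%, *Peli3* at 61.2%, *Cdsn* at 64% and *Slc29a4* at 66.8%, against a median of 53.2% over all promoters.

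**Figure D1:**
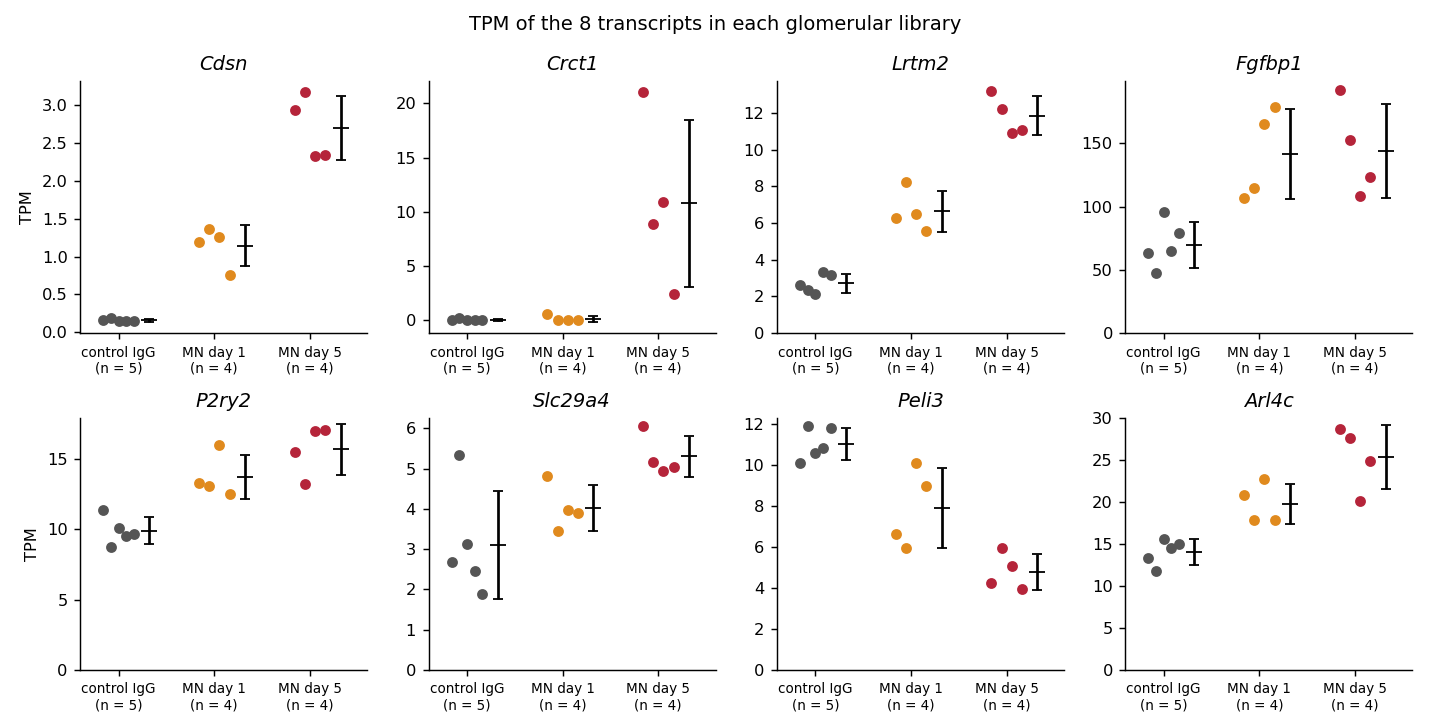
TPM (linear axes from 0, scaled per panel) of each of the 8 genes in control IgG (n = 5), MN day 1 (n = 4) and MN day 5 (n = 4) glomeruli. Each point is 1 library, and the bars give the group mean and SD. *Cdsn* and *Lrtm2* form 3 separate levels, *Crct1* stands at or near 0 until day 5, *Fgfbp1* covers 1 range on both MN days, and *Peli3* lies below control at day 5.

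*Cdsn* and *Lrtm2* stood at 3 separate levels, with every day 1 library above every control and every day 5 library above every day 1 library. *Cdsn* (chr17:35863025-35868077, plus strand, 2 exons) was at 0.162, 0.191, 0.144, 0.149 and 0.156 TPM in the 5 controls, at 1.20, 1.37, 1.26 and 0.752 TPM at day 1, and at 2.94, 3.17, 2.33 and 2.35 TPM at day 5. The means were 0.16 ± 0.0184, 1.15 ± 0.272 and 2.7 ± 0.423 TPM (SD, n = 5, 4 and 4), so the ratio of mean TPM to control was 7.14 at day 1 and 16.8 at day 5. The lowest day 1 library, replicate 4, was still well above every control library. Differences in log2(scaled TPM + 0.5), the scale used from here on with standard errors (SE) from the fit over all tested genes, were 1.32 at day 1 (SE 0.20), 2.28 at day 5 (SE 0.20) and 0.96 between the days (SE 0.21). The added 0.5 TPM understates the change of a gene as low as *Cdsn* in controls. *Cdsn* reached 1 TPM in no control library, in 3 of 4 at day 1 and in 4 of 4 at day 5, so it passed the low-level filter (1 TPM in at least 4 libraries) only through the MN libraries.

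*Lrtm2* (chr6:119292094-119307778, minus strand, 5 exons) was at 2.63, 2.33, 2.13, 3.33 and 3.14 TPM in controls, at 6.26, 8.24, 6.50 and 5.58 TPM at day 1, and at 13.2, 12.2, 10.9 and 11.1 TPM at day 5. The means of 2.71 ± 0.514, 6.64 ± 1.13 and 11.8 ± 1.08 TPM give ratios to control of 2.45 at day 1 and 4.36 at day 5. The log2 differences were 1.19 at day 1 (SE 0.15), 1.98 at day 5 (SE 0.15) and 0.79 between the days (SE 0.16). In mean TPM, 43.1% of the day 5 change from control was there at day 1, and 38.8% for *Cdsn*. Each share uses the same 5 controls in both changes. The whole of *Lrtm2* lies inside *Cacna2d4*, a calcium channel subunit gene on the opposite strand, and whether the library or the counting used strand was not given. *Cacna2d4* was at 0.655 to 1.30 TPM in controls, 0.243 to 1.02 TPM at day 1 and 0.659 to 1.45 TPM at day 5, so its groups overlapped while those of *Lrtm2* did not.

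Across the 13 libraries, *Cdsn* and *Lrtm2* were each other's closest match among the 14322 tested genes (Pearson r = 0.982 on log2 levels). Such a correlation is a description, since the libraries fall into 3 groups and any transcript that steps with them scores high. Next for both came *Adamts9*, a metalloprotease of the ADAMTS family (r = 0.955 with *Cdsn* and 0.962 with *Lrtm2*), at a mean of 7.72, 11.2 and 17.1 TPM in controls, day 1 and day 5. *Cenph*, a kinetochore gene, was the third for *Cdsn* (r = 0.941) and *Klf4*, a zinc finger transcription factor, for *Lrtm2* (r = 0.931).

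*Crct1* was the one gene of the 8 with nearly all of its change between day 1 and day 5. It (chr3:92921508-92923001, minus strand, 2 exons) was listed at 0 in 4 of 5 controls, with 0.206 TPM in replicate 2, and at 0 in 3 of 4 day 1 libraries, with 0.549 TPM in replicate 1. At day 5 it was at 21.0, 8.85, 10.9 and 2.42 TPM, a mean of 10.8 ± 7.7 TPM. Every day 5 library was above every other library, but the day 5 mice differed among themselves by 8.67 times from lowest to highest, the widest spread of any of the 8 genes in any group where none of the libraries was at 0. No ratio to control is given, because most control libraries were at 0 and TPM gives no detection limit. The log2 difference was 0.17 at day 1 (SE 0.47), 4.09 at day 5 (SE 0.47) and 3.91 between the days (SE 0.49), and its size rests on the added 0.5 TPM. Its residual SD of 0.746 on the log2 scale was the largest of the 8 genes, whose others ran from 0.138 (*P2ry2*) to 0.391 (*Fgfbp1*). The fit pools the spread of the 3 groups, so the SE of the day 1 difference also carries the wide spread of day 5. The day 1 value rests on 1 library, since without replicate 1 the difference was -0.10. *Crct1* reached 1 TPM in the 4 day 5 libraries only, and so passed the filter only through them.

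Few genes close to *Crct1* were detected. Within 500000 bases on either side, the table lists 46 other genes that could be placed by symbol. This window takes in only a part of the epidermal differentiation complex, and genes of the complex further away were not counted. Of these, 32 were at 0 in every library, 11 were above 0 but under 1 TPM everywhere, and 3 reached 1 TPM. *Tchh*, a structural protein of the hair follicle, was 1 of those 3, at 2.62 to 4 TPM in controls, 2.27 to 3.22 TPM at day 1 and 2.11 to 2.61 TPM at day 5. The closest matches of *Crct1* over the libraries were *Cks1b*, a cyclin-dependent kinase partner (r = 0.978; 5.41, 5.25 and 17.4 TPM in controls, day 1 and day 5), *Col5a3*, a fibrillar collagen chain (r = 0.974; 0.832, 0.976 and 8.73 TPM), and *Tubb6*, a beta-tubulin (r = 0.966; 13.3, 14.8 and 27.1 TPM). A list of 6 cycling-cell markers (*Mki67*, *Top2a*, *Cdk1*, *Ccnb1*, *Pbk* and *Ube2c*) was also higher at day 5. It summed to 13.7 to 25.2 TPM in controls, 10.2 to 25.5 TPM at day 1 and 102 to 174 TPM at day 5. In day 5 replicates 1 to 4 the sum was 125, 140, 174 and 102 TPM. *Crct1* was highest in replicate 1 and the sum in replicate 3, and both were lowest in replicate 4. Whether cycling cells have a part in the level of *Crct1* was not tested.

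**Figure D2:**
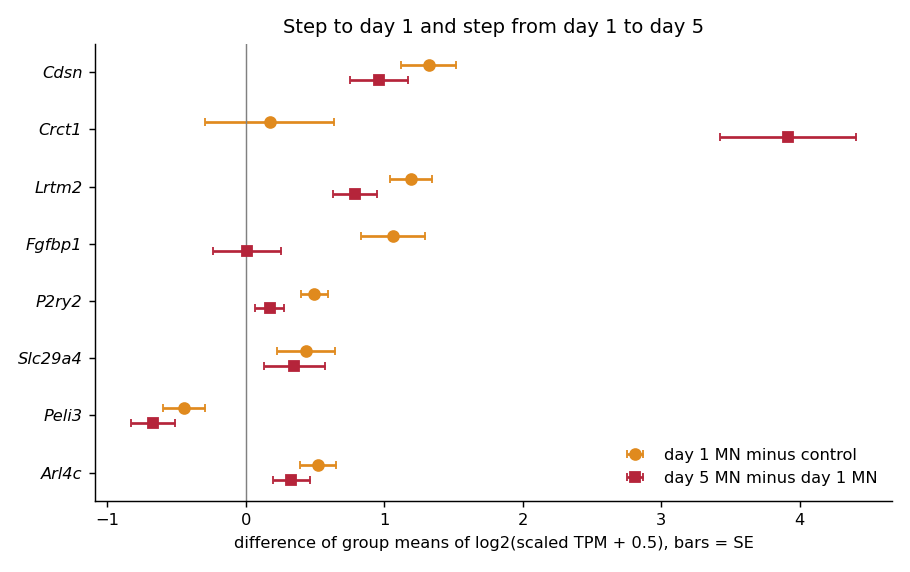
Difference of group means in log2(scaled TPM + 0.5) for each of the 8 genes, from control to day 1 (circles) and from day 1 to day 5 (squares), with bars of 1 SE. *Crct1* has its step after day 1 (3.91), *Fgfbp1* has its step by day 1 (1.06, and 0.01 afterwards), and both steps of *Peli3* are below 0.

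*Fgfbp1* had its whole change by day 1. It (chr5:44136200-44139151, minus strand, 2 exons) was the most abundant of the 8 genes in every group, at 63.3, 47.3, 95.7, 64.6 and 78.8 TPM in controls, 107, 115, 165 and 179 TPM at day 1, and 192, 153, 108 and 123 TPM at day 5. The means were 69.9 ± 18.2, 142 ± 35.7 and 144 ± 37.3 TPM. Both MN groups lay above all controls, and they covered the same range as each other. The log2 differences were 1.06 at day 1 (SE 0.23), 1.07 at day 5 (SE 0.23) and 0.01 between the days (SE 0.24), the last within its own error. *Fgfbp1* stood above 79.7% of the tested genes in controls and above 91.4% at day 5. Its closest matches were *Myl6*, a myosin light chain (r = 0.938), *Sync*, an intermediate filament protein (r = 0.927), and *Nell2* (r = 0.888).

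*P2ry2* and *Arl4c* were higher in MN by smaller amounts, with 66.1% (*P2ry2*) and 51% (*Arl4c*) of the day 5 change in mean TPM present at day 1. *P2ry2* (chr7:100640649-100663957, minus strand, 3 exons) was at 11.4, 8.78, 10.1, 9.50 and 9.69 TPM in controls, 13.3, 13.1, 16 and 12.5 TPM at day 1, and 15.5, 13.2, 17.0 and 17.1 TPM at day 5. Its means of 9.9 ± 0.972, 13.7 ± 1.52 and 15.7 ± 1.84 TPM give ratios to control of 1.39 and 1.59. Every MN library was above every control library, and day 1 overlapped day 5. The log2 differences were 0.50 at day 1 (SE 0.10), 0.67 at day 5 (SE 0.10) and 0.18 between the days (SE 0.10). Its closest match was *Apold1*, an endothelial gene (r = 0.956; 8.73, 11.8 and 15.1 TPM).

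*Arl4c* (chr1:88600847-88629943, minus strand, 3 exons) was at 13.3, 11.8, 15.6, 14.5 and 15.0 TPM in controls, 20.8, 17.8, 22.7 and 17.8 TPM at day 1, and 28.7, 27.6, 20.1 and 24.9 TPM at day 5. The means were 14 ± 1.49, 19.8 ± 2.39 and 25.3 ± 3.84 TPM, with ratios to control of 1.41 and 1.8. As for *P2ry2*, all MN libraries lay above all controls, while day 1 and day 5 overlapped through replicate 3 of day 5. The log2 differences were 0.52 at day 1 (SE 0.13), 0.85 at day 5 (SE 0.13) and 0.33 between the days (SE 0.14). The genes most like it were *Ywhae* (r = 0.943), *Crim1* (r = 0.936) and *Kcnf1* (r = 0.933), at 7.89, 10.3 and 15.4 TPM for *Kcnf1*. The span of a long noncoding RNA gene, *Gm69759*, overlaps that of *Arl4c* by 12465 bases on the same strand. Whether their exons overlap, and whether the authors' reference held *Gm69759*, was not examined. It is therefore unknown whether the authors' estimates divided any reads between them.

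*Slc29a4* had the least separated groups of the transcripts with higher means. It (chr5:142678095-142710802, plus strand, 11 exons) was at 2.69, 5.35, 3.12, 2.45 and 1.88 TPM in controls, 4.81, 3.44, 3.98 and 3.89 TPM at day 1, and 6.05, 5.17, 4.95 and 5.04 TPM at day 5. Control replicate 2, at 5.35 TPM, was above every day 1 library and above 3 of the 4 day 5 libraries, and the other 4 controls were below all MN libraries. The means were 3.1 ± 1.33, 4.03 ± 0.571 and 5.3 ± 0.509 TPM. The log2 differences were 0.43 at day 1 (SE 0.21), 0.79 at day 5 (SE 0.21) and 0.35 between the days (SE 0.22). Without control replicate 2 they were 0.62 at day 1 and 0.97 at day 5. Without control replicate 5, which had the highest proximal tubule sum, they were 0.31 and 0.67. Day 5 lay above day 1 in every library. Its most alike gene was *Crlf2*, a cytokine receptor chain (r = 0.950; 68, 77.2 and 91.2 TPM).

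*Peli3* was lower, most of all at day 5. It (chr19:4979715-4993416, minus strand, 7 exons) was at 10.1, 11.9, 10.6, 10.8 and 11.8 TPM in controls, 6.62, 5.95, 10.1 and 8.95 TPM at day 1, and 4.24, 5.92, 5.04 and 3.95 TPM at day 5. The means of 11.1 ± 0.789, 7.91 ± 1.96 and 4.79 ± 0.884 TPM give ratios to control of 0.716 and 0.433. At day 1, replicates 1 and 2 were well below the controls and replicate 3 reached the lowest control, so the groups touched, whereas all day 5 libraries were below all others. The log2 differences were -0.44 at day 1 (SE 0.15), -1.11 at day 5 (SE 0.15) and -0.67 between the days (SE 0.16). The correlation of *Peli3* with each of the other 7 genes over the libraries was negative, from -0.887 with *Cdsn* to -0.550 with *Fgfbp1*. The transcripts most like it also had lower means at day 1 and day 5: *Svip* (r = 0.944; 14.8, 12.4 and 9.77 TPM), *Cdc42bpg*, a kinase of the actin cytoskeleton (r = 0.935; 88.9, 60.2 and 47.5 TPM), and *Cgnl1*, a tight junction protein (r = 0.918; 153, 128 and 91.4 TPM).

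Counted by libraries that do not overlap, 5 of the 8 genes were above control in every library at day 1 (*Cdsn*, *Lrtm2*, *Fgfbp1*, *P2ry2* and *Arl4c*), where 0.908% of all tested genes were, and none was below control throughout, where 3.32% were. At day 5, 6 were above control in every library (the same 5 and *Crct1*), beside 5.07% of all tested genes, and 1 (*Peli3*) was below, beside 5.71%. Between the days, 4 were higher in every day 5 library (*Cdsn*, *Crct1*, *Lrtm2* and *Slc29a4*), beside 6.12%, and *Peli3* was lower, beside 4.93%. Since the genes were chosen from these libraries, nothing is read from those counts. The median log2 difference of the 8 genes was 0.51 at day 1, 0.96 at day 5 and 0.34 between the days, and that of all tested genes was within 0.01 of 0 in each.

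The order of the genes by level changed between the groups. In controls *Fgfbp1* stood first, followed by *Arl4c*, *Peli3* and *P2ry2*, whose libraries overlapped from one to the next, then by *Slc29a4* and *Lrtm2*, which also overlapped, and last by *Cdsn* and *Crct1*. At day 5 the first 3 were *Fgfbp1*, *Arl4c* and *P2ry2*, each apart from the next. *Lrtm2* (11.8 TPM), *Crct1* (10.8 TPM), *Slc29a4* (5.3 TPM) and *Peli3* (4.79 TPM) followed with overlapping neighbours, and *Cdsn* was last at 2.7 TPM. The mean of *Crct1* was above that of 0.0838% of the tested genes in controls and of 33.7% at day 5, and that of *Peli3* above 33.8% and 21.1%.

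Relatives of the 8 genes and genes of related pathways or tissues were followed in 8 lists of 232 genes, of which 142 passed the filter. They are called partner lists here, and not every gene in them is known to work with a member. A gene was called where limma's adjusted p was under 0.05 and the log2 difference beyond 0.5 in size. At day 1 none of the 142 was called, beside 0.0908% of all tested genes. At day 5, 7 were called, 4 higher and 3 lower, which is 4.93% of those tested beside 3.21% of all genes, and between the days none was called, beside 1.81%. The median log2 difference at day 5 was 0.017 over the 142 genes and ran from -0.067 (cornified envelope) to 0.067 (Pellino, IRAK and Toll-like receptors) by list, beside a median of -0.00322 over all tested genes. When single libraries were left out, 3 to 7 list genes were called at day 5.

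**Figure D3:**
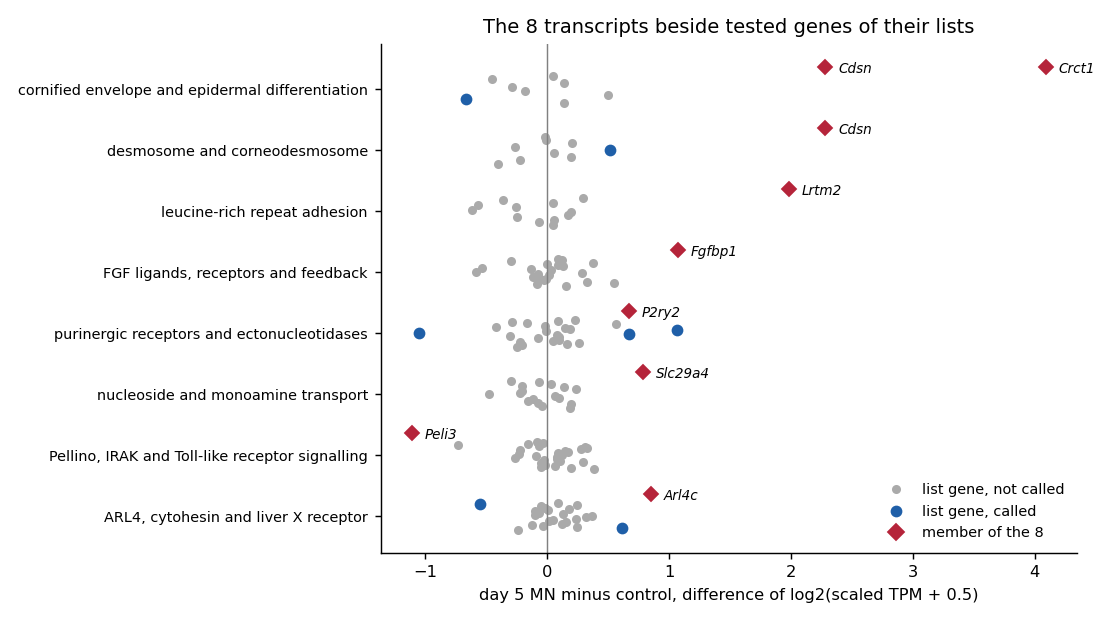
Difference in log2(scaled TPM + 0.5) between day 5 and control for the tested genes of the 8 partner lists. Blue points are the 7 list genes called by limma, grey points those not called, and diamonds the 8 genes themselves, above the list each is tied to (*Cdsn* above both skin lists). The diamonds show the values by which those genes were chosen.

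Most genes of the cornifying skin programme were below the filter. Of 45 cornified envelope and epidermal differentiation genes, 19 were at 0 in every library and 8 were tested, and *Grhl1*, a transcription factor of epidermal barrier genes, was called lower at day 5 (2.04 to 1.09 TPM, log2 difference -0.67, SE 0.18, adjusted p = 0.0488). Of 21 desmosome and corneodesmosome genes, 9 were tested and *Perp*, a tetraspan membrane protein of desmosomes, was called higher (9.79 ± 1.04 TPM in controls and 13.9 ± 2.41 TPM at day 5, log2 difference 0.51, SE 0.13, adjusted p = 0.0301), although libraries of the groups overlapped. *Krt10*, a keratin of suprabasal epidermis, had means of 8.82, 12.4 and 12.5 TPM and was not called (log2 difference at day 5 of 0.50, adjusted p = 0.0664), and neither was *Lor*, a main cornified envelope protein, at 13.9, 13.5 and 11.9 TPM. Among 7 keratinocyte markers *Krt10* and *Lor* alone reached 1 TPM, *Dsg1a* was at 0 throughout, and the sum was 18.7 to 25.5 TPM in controls, 25 to 26.9 TPM at day 1 and 21.9 to 29.3 TPM at day 5. All 6 urothelial markers were under 1 TPM in every library. The parietal epithelial markers *Cldn1*, *Pax2* and *Pax8* summed to 11.5 to 15.4 TPM in controls, 16.2 to 20.0 TPM at day 1 and 18.3 to 22.9 TPM at day 5, without overlap between control and MN. Of these 3 genes only *Cldn1*, a tight junction claudin, was called at day 5, where it was higher (5.38 to 11.9 TPM, log2 difference 1.08, SE 0.19, adjusted p = 0.0036). The mean sum went from 13.3 TPM in controls to 21.2 TPM at day 5, so most of that rise was *Cldn1*. Whether the cells of these marker lists have a part in the levels of the 7 genes with higher means was not tested.

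**Figure D4:**
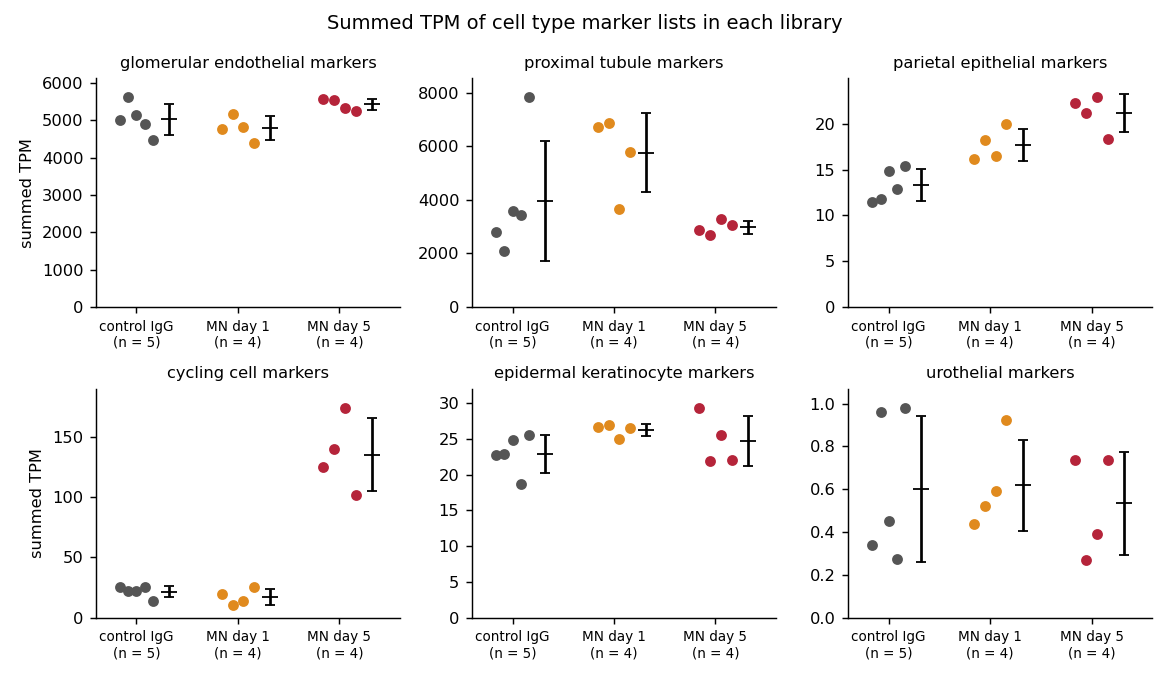
Summed TPM (linear axes from 0, scaled per panel) of the markers of 6 cell types in each of the 13 libraries by group, with bars of the group mean and SD. The endothelial sum of each MN group overlaps that of the controls. The highest proximal tubule sum, in control replicate 5, is mostly *Kap*. The parietal sum is higher in both MN groups, and of its 3 genes only *Cldn1* was called at day 5. The cycling-cell sum is 102 to 174 TPM at day 5 against at most 25.5 TPM before, and the urothelial sum stays under 1 TPM.

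In the partner list of *P2ry2*, 24 of 31 purinergic receptors, ectonucleotidases and effectors were tested, and 3 ATP-gated channel genes were called at day 5. *P2rx1* was higher (58.1 ± 8.9 TPM in controls, 90.5 ± 15.3 TPM at day 5, log2 difference 0.67, SE 0.14, adjusted p = 0.0137), as was *P2rx5* (0.82 ± 0.271 and 2.27 ± 0.957 TPM, log2 difference 1.06, SE 0.27, adjusted p = 0.0358). The day 5 libraries of *P2rx5*, the lowest at 1.68 TPM, were alone enough to pass it through the filter. Its means in controls and at day 1 (0.954 TPM) were under 1 TPM. *P2rx2* was lower (3.05 ± 0.75 and 1.18 ± 0.432 TPM, log2 difference -1.055, SE 0.275, adjusted p = 0.0386). Its lowest control and its highest day 5 library were both at 1.8 TPM, so the groups touched. *P2ry6*, a UDP receptor whose gene is 16475 bases from *P2ry2*, was not called, with means of 15, 12.7 and 14.5 TPM, and *P2ry1*, an ADP receptor, was at 74.4, 74.3 and 78.5 TPM. The partner list of *Arl4c* gave 2 calls among 23 tested genes. *Abcg1*, a sterol transporter under liver X receptor control, was higher (8.78 ± 1.57 and 13.2 ± 1.29 TPM, log2 difference 0.61, SE 0.14, adjusted p = 0.0173). *Scd2*, a fatty acid desaturase, was lower (64.4 ± 5.82 and 43.2 ± 7.19 TPM, log2 difference -0.55, SE 0.11, adjusted p = 0.00814). The other ARL4 genes were not called, with *Arl4a* at 24.6, 26.1 and 23.7 TPM and *Arl4d* at 180, 171 and 160 TPM.

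The 4 remaining lists gave no call at any day, over 12 leucine-rich repeat adhesion genes, 22 FGF ligand, receptor and feedback genes, 17 nucleoside and monoamine transport genes, and 27 genes of Pellino, IRAK and Toll-like receptor signalling. Among the relatives of the 8 genes in them, *Lrtm1* was at or below 0.16 TPM in every library and was not tested. *Fgfbp3* was at 3.81, 3.61 and 3.28 TPM (adjusted p = 0.854 at day 5), and *Slc29a1*, the main equilibrative nucleoside transporter, at 195, 196 and 209 TPM (adjusted p = 0.598). *Slc29a2* was at 2.64, 2.99 and 2.19 TPM and *Slc29a3* at 11, 12.2 and 11.1 TPM, neither called. *Peli1* was at 31.1, 30.2 and 32.1 TPM (adjusted p = 0.609), while *Peli2*, at 27.5, 24.1 and 22.2 TPM, had a log2 difference of -0.27 at day 5 with an adjusted p of 0.0583. No test compared these relatives with the 8 genes themselves.

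The genomic neighbours gave no call. The neighbours are the 16 nearest tested genes whose symbol is also in the GENCODE annotation, 1 on each side of each gene. None was called at day 1, at day 5 or between the days. *Vars2*, beside *Cdsn*, came nearest, with a log2 difference of -0.50 at day 5 that was just short of the threshold of 0.5 (adjusted p = 0.0104). *Dpp3*, which is 1399 bases from *Peli3*, was at 40.3, 40.3 and 42.3 TPM. *Slc29a4* overlaps *Tnrc18* on the opposite strand by 442 bases, and *Tnrc18* was at 77 ± 5.15, 72 ± 4.64 and 79.7 ± 11.6 TPM. *Cdsn* and *P2ry2* overlap the long noncoding RNA genes *Gm65939* (by 811 bases) and *Gm74011* (by 2698 bases), also on the opposite strand. These overlaps are between whole gene spans, introns included, and whether exons overlap was not examined. Where exons do overlap, their reads cannot be told apart without strand. No other gene shared at least 90% identity over at least 50% of the canonical transcript of any of the 8 genes.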

How the data were processed

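Glomerular RNA of 13 mice (5 control IgG, 4 MN day 1, 4 MN day 5) was sequenced and quantified by the authors. According to the submitters' processing notes, FastQC 0.11.9, Trimmomatic 0.39 and kallisto 0.46.2 were used with GRCm39. The deposited values are TPM per gene symbol and are not counts, so the count model of the study was replaced by limma 3.58.1 (R 4.3.3) on log2(scaled TPM + 0.5).

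TPM values were divided by a median-of-ratios factor per library (15772 genes). Genes at 1 TPM or more in at least 4 libraries were tested (14322 of 35967), with the 3 groups in 1 fit, a mean-variance trend and Benjamini-Hochberg adjustment per contrast. Calls needed an adjusted p under 0.05 and a log2 difference beyond 0.5. The script was tested on simulated data.

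The members and lists were chosen with earlier results of these data known. Genes named are the 8 members, the 3 tested genes most correlated with each, their closest relatives and the called genes of 8 partner lists (at most 4 per list and contrast), the nearest tested gene on each side, and cell type markers. *Vars2* and *Dpp3* were picked from the neighbours, and *Krt10*, *Lor* and *Tchh* from the lists and the *Crct1* locus, after their values were seen. No litter or batch is given, so p-values measure only the spread between these libraries. Replicate numbers are labels only: deviations of same-numbered libraries correlated at -0.0563 to 0.0913. Promoters and loci are from GRCm39 with GENCODE vM39 annotation, and transcripts were compared with BLAST+ 2.17.0. Neighbours and the genes around *Crct1* were placed by symbol, so a gene under another symbol in the annotation would be missed. Alternatives were the pseudocount, the filter, the scaling, the trend, only the 2 groups compared, a replicate block and leaving out each library. The podocyte marker sum is not reported here, and promoter sequence is printed for 3 of the 8 genes. Depth is unknown, so no counting interval is given.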

Additional observations from a re-analysis of the deposited data

Results flagged for a closer look

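Among the 8 genes in 3 groups, 24 groups of 4 or 5 libraries were tested for a single library far from the rest by Dixon's criterion, and 2 were past its 95% limit. Chance flags about 1 in 20 groups where the values follow a normal spread. Both flags were *Crct1*: control replicate 2 stood at 0.206 TPM and MN day 1 replicate 1 at 0.549 TPM, while the other libraries of each group were listed at 0. In such a group any single value above 0 passes the criterion. Both flags were therefore fixed by the zeros, and no outlier is read from them.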

How the results depend on the processing

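The number of genes called at day 1 (13) was 6 with no filter on low values, 7 with no trend, 2 with only the 2 groups fitted, 149 with a replicate block and 3 to 218 when 1 library was left out (218 without control replicate 5, 18 without day 1 replicate 3, 11 or fewer without any other). List genes called at day 1 (0) were 3 with the block and 0 to 5 by library left out (5 without control replicate 5). List genes called at day 5 (7) were 4 with no filter, 4 with 1 TPM required in every library, 1 with the block and 3 to 7 by library left out (3 without control replicate 3 or day 5 replicate 1, 4 without control replicate 2, control replicate 5 or day 5 replicate 4). Between the days, the called genes (259) were 153 with 1 TPM in every library, 414 with only the 2 groups and 150 to 437 by library left out (437 without control replicate 5, 164, 150 and 160 without day 5 replicates 1, 2 and 3), and the list genes (0) were 5 with only the 2 groups, 2 with the block and 0 to 4 by library left out (4 without control replicate 5). The median difference of the 8 genes at day 5 ran from 0.84 to 1.10 over the libraries left out. The day 1 difference of *Crct1* ran from -0.10 to 0.27 over them, and that of *Fgfbp1* between the days from -0.16 to 0.16, with -0.0253 under quantile scaling. With a pseudocount of 0.1 in place of 0.5 the differences of *Cdsn* were 2.27 and 3.44 at day 1 and day 5 and that of *Crct1* 6.10 at day 5. With 1 they were 0.89, 1.68 and 3.23. The replicate block pairs different animals by number. Depth is unknown, so levels under 1 TPM carry no detection limit.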
